A study of Mus musculus with 4 samples.

Results

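The library of C2C12 myoblasts in exponential growth was set against the lowest and the highest of 3 libraries made after these cells had been moved to differentiation conditions. A gene was compared where transcripts were assembled in all 4 libraries and at least 1 intron was assembled in each of them, which held for 9493 of 12883 named genes. A gene was called where the growth value lay at least 2-fold outside the range of the 3 later libraries by each of 3 measures of the gene, with counting intervals that did not overlap any of the 3 and at least 1 RPKM (a fragment count divided by transcript length and by library size) on the higher side. By this rule 484 genes were higher in growth than in all 3 later libraries, 5.10% of those compared, and 431 were lower in growth, 4.54% of those compared. Without the 60 h library 798 were higher. The calls use measured values, so they are given as descriptions with no test.

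C2C12 is an established line of mouse skeletal myoblasts, labelled here with strain C57BL/6. The growth library, labelled -24 h, came from cells dividing in high serum, and the other libraries came from cells kept in low serum for 60 h, 120 h and 168 h after they had reached confluence. All 4 carry polyadenylated RNA, no gene was altered in any of them, and each time point has 1 library. Growth state, serum, cell density and library therefore cannot be told apart, no spread between replicates exists, and an exact permutation of 1 library against 3 could not give a p below 0.25. The ± after a value is the distance to its deposited limit, which covers counting error only. In bulk RNA, fewer cells of a kind and less RNA per cell cannot be told apart.

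Myoblasts divide while serum growth factors drive the cyclins and while Id proteins, which bind the partners of the MyoD family without binding DNA, hold differentiation back. When serum is withdrawn the cells leave the cell cycle, express myogenin, fuse through the membrane proteins Mymk and Mymx, and build sarcomeres, the contractile units of actin, myosin, troponin and titin. Differentiating muscle cells also exchange exons in widely expressed genes, a change in which Ptbp1, a repressor of tissue exons, and factors of the Rbfox, Mbnl and Celf families are known to take part.

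The exons below were included less in growth than in each later library, apart from that of Macf1, which was included more. They are shown because each is a whole coding exon whose length is a multiple of 3, so that the message keeps its reading frame with or without it. Capitals mark the exon and lower case letters the 12 bases of the neighbouring exons in the annotated transcript. The coordinates are those of the annotation and not of the deposited files.
Mef2d exon, GRCm38 chr3:88161781-88161801, plus strand: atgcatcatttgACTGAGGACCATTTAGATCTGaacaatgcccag
Fxr1 exon, GRCm38 chr3:34064974-34065054, plus strand: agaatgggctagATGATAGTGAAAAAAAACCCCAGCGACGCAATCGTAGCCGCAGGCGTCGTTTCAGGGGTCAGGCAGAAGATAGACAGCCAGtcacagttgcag
Tead1 exon, GRCm38 chr7:112841888-112841950, plus strand: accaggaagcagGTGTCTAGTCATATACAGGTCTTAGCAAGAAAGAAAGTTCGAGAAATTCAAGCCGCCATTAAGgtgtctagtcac
Enah exon, GRCm38 chr1:181911597-181911659, minus strand: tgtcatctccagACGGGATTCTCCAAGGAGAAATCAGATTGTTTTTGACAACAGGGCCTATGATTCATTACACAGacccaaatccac
Ehmt2 exon, GRCm38 chr17:34905610-34905711, plus strand: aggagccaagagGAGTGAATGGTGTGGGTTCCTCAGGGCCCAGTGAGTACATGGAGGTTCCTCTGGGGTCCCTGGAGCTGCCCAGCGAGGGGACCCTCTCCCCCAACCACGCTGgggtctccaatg
Atp2b1 exon, GRCm38 chr10:99019278-99019364, plus strand: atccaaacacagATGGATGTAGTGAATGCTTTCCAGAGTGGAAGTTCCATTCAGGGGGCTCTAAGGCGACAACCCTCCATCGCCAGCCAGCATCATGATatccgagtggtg
Dst exon, GRCm38 chr1:34301861-34301932, plus strand: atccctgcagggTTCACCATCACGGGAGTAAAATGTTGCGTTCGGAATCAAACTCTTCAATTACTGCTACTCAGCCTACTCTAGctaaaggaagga
Palld exon, GRCm38 chr8:61534858-61534908, minus strand: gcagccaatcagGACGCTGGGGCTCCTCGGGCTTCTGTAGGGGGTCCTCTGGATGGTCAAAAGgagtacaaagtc
Macf1 exon, GRCm38 chr4:123441603-123441665, minus strand: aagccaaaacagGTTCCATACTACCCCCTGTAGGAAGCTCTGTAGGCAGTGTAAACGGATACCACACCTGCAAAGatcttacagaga
The Mef2d exon has 21 bases and lies in a transcription factor of muscle genes. The exons of Tead1 (63 bases), a partner of the Yap coactivators, of Fxr1 (81 bases), an RNA-binding protein, and of Ehmt2 (102 bases), a histone methyltransferase, lie in other regulators of expression. Enah (63 bases), Dst (72 bases), Palld (51 bases) and Macf1 (63 bases) encode proteins of the cytoskeleton, and Atp2b1 (87 bases) a calcium pump of the plasma membrane.

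The promoter sequences below come from genes called in the mitosis list and in the sarcomere list, and are shown because each holds at least 2 of the motifs searched within 150 bases before the start site. Capitals mark, on either strand, the CHR element (TTTGAA), the CCAAT box, the E-box of myogenic factors (CAGCTG), the TATA box (TATAAA), the MEF2 site and the CArG box. The searches for the TATA box and the MEF2 site can share letters.
Cdk1 promoter, GRCm38.p6 chr10:69352913-69353062, minus strand: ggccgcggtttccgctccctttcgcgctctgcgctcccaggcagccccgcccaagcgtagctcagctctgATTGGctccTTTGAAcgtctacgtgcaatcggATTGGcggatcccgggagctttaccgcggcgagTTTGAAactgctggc
Cdc20 promoter, GRCm38.p6 chr4:118437344-118437493, minus strand: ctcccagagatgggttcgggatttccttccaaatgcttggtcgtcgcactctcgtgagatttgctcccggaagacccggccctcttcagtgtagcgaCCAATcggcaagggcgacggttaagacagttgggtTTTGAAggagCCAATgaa
Ube2c promoter, GRCm38.p6 chr2:164769779-164769928, plus strand: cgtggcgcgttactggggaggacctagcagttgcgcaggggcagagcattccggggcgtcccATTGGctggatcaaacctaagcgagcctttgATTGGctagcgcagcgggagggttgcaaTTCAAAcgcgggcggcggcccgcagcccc
Acta1 promoter, GRCm38.p6 chr8:123894776-123894925, minus strand: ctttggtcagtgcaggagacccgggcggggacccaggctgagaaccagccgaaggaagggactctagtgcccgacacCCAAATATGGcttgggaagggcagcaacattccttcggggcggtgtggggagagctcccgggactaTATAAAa
Mybph promoter, GRCm38.p6 chr1:134193298-134193447, plus strand: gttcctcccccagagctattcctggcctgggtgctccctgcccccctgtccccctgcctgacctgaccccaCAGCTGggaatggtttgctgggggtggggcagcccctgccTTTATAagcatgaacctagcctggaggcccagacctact
Klhl41 promoter, GRCm38.p6 chr2:69669970-69670119, plus strand: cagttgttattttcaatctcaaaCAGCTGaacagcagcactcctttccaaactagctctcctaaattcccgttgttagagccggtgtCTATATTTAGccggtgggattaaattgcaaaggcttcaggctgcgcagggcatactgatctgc
Promoters of RefSeq (GRCm38.p6) were matched for 7562 of the 9493 genes, with windows of 300 bases, 250 before and 50 after the start. TTTGAA was found in 14 of 20 matched promoters of mitosis genes called higher in growth, or 70%, against 19.3% of all genes called higher, 11.2% of all genes compared and 18.1% of all promoters in the table. CCAAT was found in 15 of the same 20, and in 14 of 23 matched promoters of DNA replication genes called higher. It was found in 47.9% of all genes called higher and in 39.1% of all genes compared. TTCCCGC, a core of E2F sites, was found in 10 of the 23 promoters of replication genes and in none of the 20 of mitosis genes. Its share was 14.3% of all genes called higher and 8.66% of all genes compared. CAGCTG was found in 11 of 22 matched promoters of sarcomere genes called lower in growth, against 26.2% of all genes called lower and 14.5% of all genes compared. The MEF2 site was found in 2 and the CArG box in 4 of those 22. Their shares were 4.15% and 3.83% of all genes called lower, and 1.52% and 1.38% of all genes compared. In all promoters of the table they were 3.26% and 1.57%. These are matches of letters, and binding was not measured.

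The libraries held 28513976 fragments in growth, 48228886 at 60 h, 24488681 at 120 h and 43845262 at 168 h. Over all genes compared, growth lay above the later range in 3896, below it in 2590 and inside it in 3007, or 31.7%. The median difference of growth from the median later library was 0.15 on the log2(RPKM + 1) scale. Scaling by median ratios shifted that median by -0.13. The share of calls that were higher in growth was 52.9% as deposited and 38.6% after median-ratio scaling, so the balance between the directions depends on the scaling. Nearest to the limit of 1 on the log2 scale, Gpatch4 lay just inside, with a gap of 1.001, and Wdr82 just outside, with 0.999. On the lower side, Abhd1 lay just inside at -1.003 and Gstm1 just outside at -0.998. Single genes of the 2 sides of that limit barely differ, and these were named for that place alone.

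**Figure D1:**
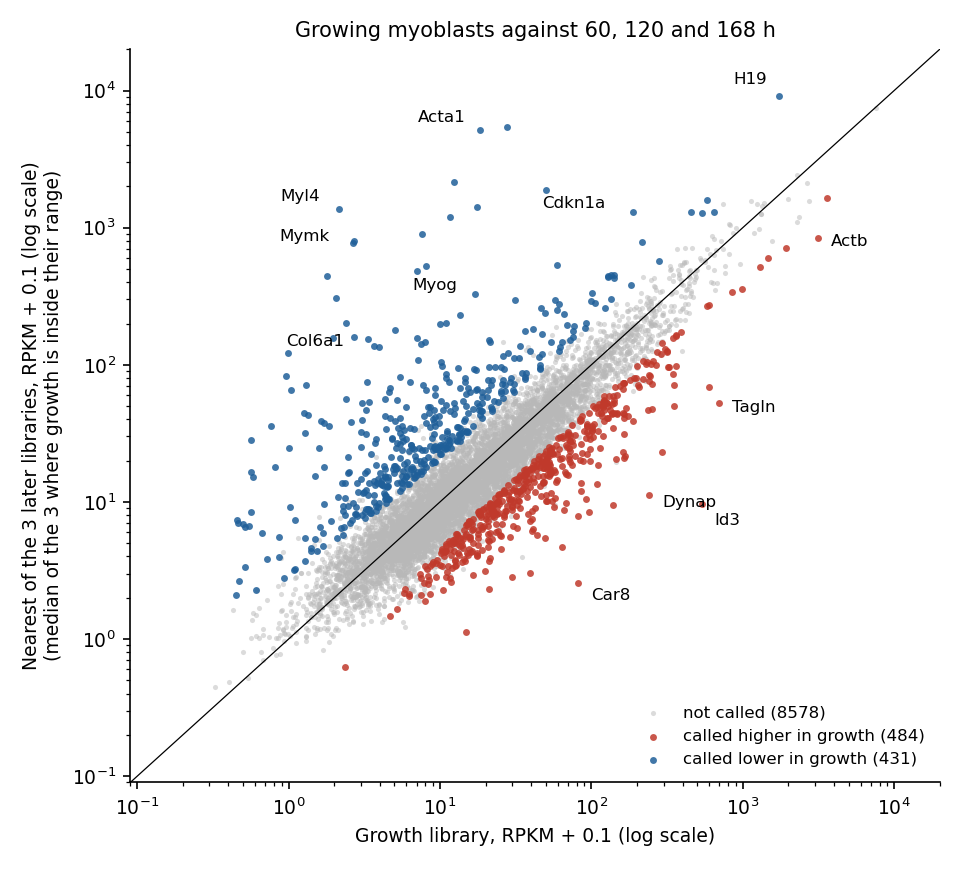
Each point is a gene compared, with RPKM + 0.1 in growth (x) against the nearest later library (y, or the median of the 3 where growth lies inside their range), both on log axes, and colours mark the 484 genes called higher and the 431 called lower in growth. The genes called lower reach farther from the diagonal, led by Acta1 and Myl4, than those called higher, led by Id3.

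The genes called lower in growth lay farther from the later libraries than those called higher. The median fold to the nearest later library was 3.55 for genes lower in growth and 2.78 for genes higher in growth. A gap of at least 10-fold was reached by 72 genes lower and by 12 genes higher in growth. For 423 of the 484 higher and 404 of the 431 lower genes, the gap between growth and the nearest later library was larger than the spread among the 3 later libraries. These counts follow in large part from the rule, which asks for a gap of at least 1 on the log2(RPKM + 1) scale. The median later spread on that scale was 0.66 for the higher and 0.60 for the lower genes. The nearest later library was that at 60 h for 319 of the higher and 279 of the lower genes. Of the fragments in assembled transcripts, genes called higher took 11.7% in growth and 3.82%, 2.93% and 2.35% at 60 h, 120 h and 168 h. Those called lower took 3.05% in growth and 17.8%, 21.9% and 21.1% later.

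**Figure D2:**
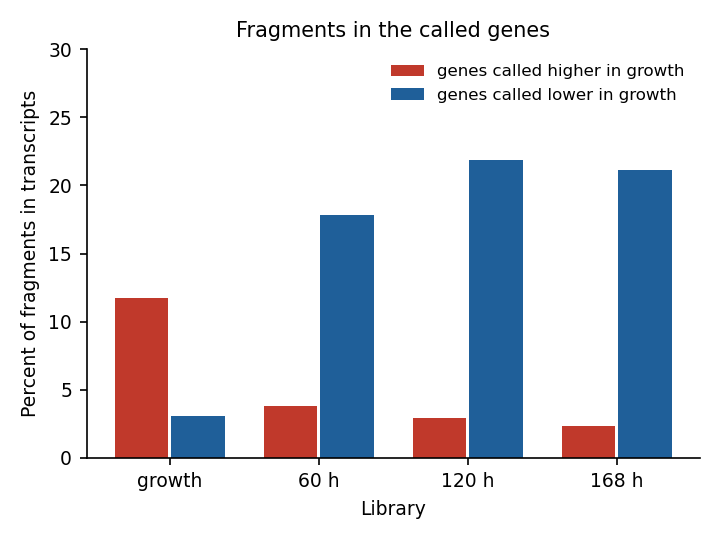
Bars give, as percent of the fragments in each library's assembled transcripts, those in genes called higher and in genes called lower in growth, with the library on the x axis. The higher genes go from 11.7% in growth to 2.35% at 168 h and the lower genes from 3.05% to 21.1%, as the rule that chose them requires in direction.

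Id3 had the largest gap on the growth side among the protein-coding genes compared, and Id1 and Id2 were also among the 15 largest. Id3 stood at 534 ± 8.31 RPKM in growth, 9.59 ± 0.928 at 60 h, 6.36 ± 1.13 at 120 h and 5.81 ± 0.785 at 168 h. Growth was 55.7-fold above the nearest later library. Id1 stood at 290.5, 23.0, 16.7 and 12.6 RPKM in the same order, and Id2 at 92.0, 10.5, 7.14 and 5.19 RPKM. In the list of inhibitors of differentiation, 4 of 19 members compared were higher in growth, the fourth being Twist2, a bHLH repressor, at 38.2 RPKM in growth and 8.02, 4.08 and 3.58 RPKM later. In the opposite direction, Bhlhe40, a bHLH repressor of E-box genes, stood at 14.6 RPKM in growth and between 75.2 and 84.4 RPKM later. Zeb1, a zinc finger repressor, stood at 9.96 RPKM in growth and between 22.2 and 26.5 RPKM later. The list thus held members on both sides of the later range. Called higher were 21.1% and called lower 10.5%, against 5.10% and 4.54% of all genes compared.

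Several of the other genes with the largest gaps belong to no list. Car8, a protein of the carbonic anhydrase family, stood at 81.9 ± 5.82 RPKM in growth and at 0.866, 2.46 and 1.01 RPKM later, a gap of 33.3-fold. Dynap stood at 241.8 RPKM in growth and at 11.2, 6.50 and 4.17 RPKM later. Cthrc1, a secreted protein of collagen-rich matrix, stood at 63.7 RPKM in growth and at 4.61, 2.15 and 1.33 RPKM later. For each of these 3 genes the growth value stood far above the later values, which also differed among themselves. Tm4sf1, a membrane protein of the tetraspanin-like L6 family, stood at 598.1 RPKM in growth and 69.1, 50.8 and 28.9 RPKM later. Nqo1, a quinone reductase, stood at 96.1 RPKM in growth and 8.32, 7.28 and 6.49 RPKM later. Fam19a5, Rasl11a and Prr9 were 13.5-fold, 10.8-fold and 14.5-fold above the nearest later library, from 39.5, 29.8 and 14.8 RPKM in growth. Prl2c2 and Gm45716 also had gaps among the 15 largest, but 90.0% and 18.6% of their sampled words of 50 bases occur in other annotated genes, so their values are uncertain.

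DNA replication was the list with the largest share of members higher in growth. Of 40 members compared, 29 were higher and none lower, with a median difference of 2.09 on the log2 scale, against 0.15 over all genes. Rrm2, the small subunit of ribonucleotide reductase, stood at 352.7 ± 6.06 RPKM in growth and 47.1, 50.1 and 28.1 RPKM later. Mcm5, a subunit of the replicative helicase, stood at 161.5 ± 2.82 RPKM in growth and 23.1, 16.4 and 7.46 RPKM later. Rrm2 lay 7.04-fold and Mcm5 6.99-fold above the nearest later library, and Fen1, a flap endonuclease, stood at 68.1 RPKM in growth and 9.71, 8.57 and 6.47 RPKM later, but 81.1% of the sampled words of Fen1 occur elsewhere. The other helicase subunits called were Mcm2 (98.0 RPKM in growth, 28.8, 17.0 and 11.1 RPKM later), Mcm3 (110 RPKM, then 18.5, 10.6 and 2.15), Mcm4 (40.2 RPKM, then 7.46, 4.58 and 2.41) and Mcm6 (88.5 RPKM, then 19.9, 11.6 and 3.29). Each helicase subunit was lowest at 168 h. The loading factors Cdc6 and Cdt1, the primase subunits Prim1 and Prim2, the thymidylate synthase Tyms and the chromatin assembly subunits Chaf1a and Chaf1b were also called. Among the 29, the fold to the nearest later library ran from 2.06 to 7.04 with a median of 4.22, and 19 of the 29 went down in order from 60 h to 120 h to 168 h.

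Mitosis genes differed from replication genes in their spread among the later libraries. In the mitosis and spindle list 25 of 41 members compared were higher in growth and none was lower, with a median difference of 1.89 on the log2 scale. Cdk1, the kinase that starts mitosis, stood at 187.8 ± 4.62 RPKM in growth, 38.7 ± 1.62 at 60 h, 20.0 ± 1.67 at 120 h and 6.70 ± 0.729 at 168 h. Birc5, a subunit of the chromosomal passenger complex, stood at 163.1 RPKM in growth and 40.6, 20.1 and 2.04 RPKM later. Cdc20, an activator of the anaphase-promoting complex, stood at 164.5 RPKM in growth and 43.3, 23.2 and 5.82 RPKM later. All 3 were lower in each library than in the one before. That no later interval overlapped growth follows from the rule for a call. Ube2c, the ubiquitin-conjugating enzyme of that complex, stood at 126 RPKM in growth and 40.9, 22.1 and 5.29 RPKM later. Among the 25 the median fold to the nearest later library was 2.86, the median spread among the later libraries was 2.23 on the log2 scale, and 21 went down in order. For the 29 replication genes that spread was 0.84. The median fold of growth over 168 h was 14.8 for the mitosis genes called and 10.5 for the replication genes called. The later libraries thus lay farther apart in mitosis genes than in replication genes, by these medians over the genes called.

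**Figure D3:**
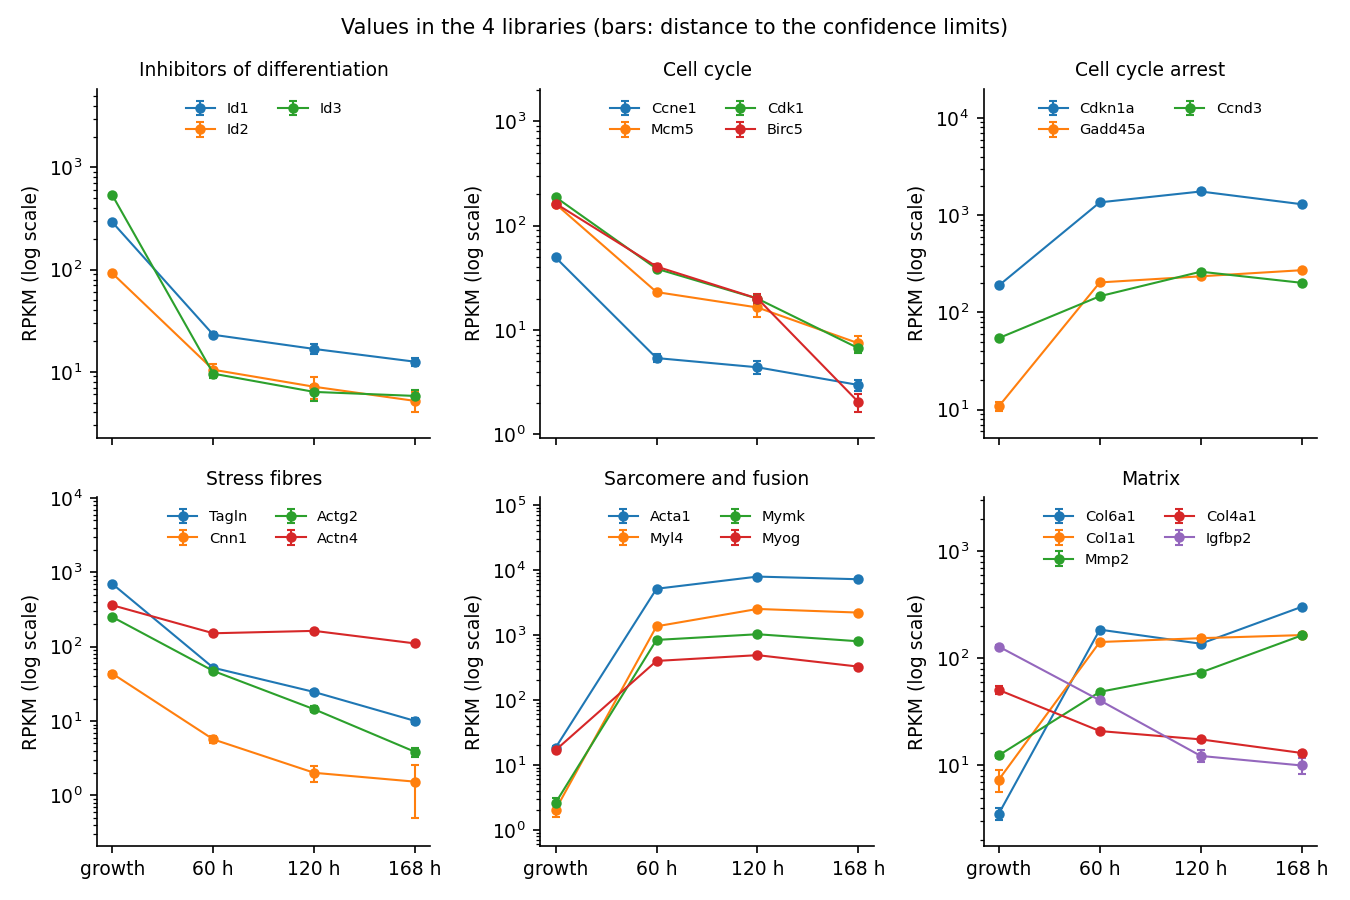
Lines give RPKM on a log axis for named genes, 1 panel per group, in growth and at 60, 120 and 168 h, with the distance to the deposited limit as bars. Id genes, cell cycle genes and stress fibre genes start above all later values, and arrest, sarcomere and fusion genes start below them. In the matrix panel Col4a1 and Igfbp2 start above and Col6a1, Col1a1 and Mmp2 below.

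Regulators of the G1 phase were mostly higher in growth where they were called. In this list 8 of 19 members compared were higher in growth, or 42.1%, against 5.10% of all genes compared. Lower in growth was 1 member, or 2 without the 168 h library. That 1 is 5.26%, near the 4.54% of all genes compared. Ccne1, cyclin E1, stood at 49.6 RPKM in growth and 5.39, 4.39 and 2.97 RPKM later. Cks1b, a small subunit of cyclin kinases, stood at 101.7 RPKM in growth and 29.6, 23.2 and 9.21 RPKM later. Ccnd1, cyclin D1, stood at 162.8 RPKM in growth and 26.1, 44.3 and 15.2 RPKM later, with 27.3% of its sampled words in other genes. Ccnd2, cyclin D2, was the member that was lower in growth, at 3.35 ± 0.787 RPKM against 8.25, 11.7 and 14.4 RPKM later. The D-type cyclins therefore did not share a direction, since Ccnd3 also was lower in growth, at 54.3 RPKM against 146.5, 261.9 and 201.2 RPKM, although 74.1% of its exon bases overlap another assembled gene. Ccnd3 was counted in the list of cell cycle arrest, where 4 of 17 members compared were lower in growth and none was higher. Cdkn1a, the p21 inhibitor of cyclin kinases, stood at 189 ± 4.41 RPKM in growth and at 1354 ± 10.3, 1751 ± 18.96 and 1295 ± 7.24 RPKM later. Gadd45a, a growth arrest protein, stood at 10.8 RPKM in growth and 203, 235 and 271 RPKM later, an 18.8-fold gap. Ccng2, an atypical cyclin of resting cells, made the fourth.

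Chromatin, repair, nucleotide and ribosome genes lay above the later range in growth where they were called. Of the chromatin and nuclear envelope list 9 of 25 members compared were higher and none was lower. Suv39h1, a histone methyltransferase of heterochromatin, stood at 85.9 RPKM in growth and 12.01, 6.43 and 4.82 RPKM later. Uhrf1, which guides DNA methylation to new strands, stood at 93.5 RPKM in growth and 22.3, 19.8 and 5.77 RPKM later, and Asf1b, a histone chaperone, at 74.2, 18.6, 11.6 and 11.9 RPKM. In the DNA damage repair list 6 of 20 were higher, among them the uracil glycosylase Ung at 15.6 RPKM in growth and 3.95, 4.43 and 5.44 RPKM later. Nucleotide and one-carbon synthesis had 9 of 23 members higher, but only 4 after median-ratio scaling, where Ctps, the CTP synthase at 83.5, 20.1, 15.7 and 11.4 RPKM, was among those not kept. Umps, the last enzyme of UMP synthesis, stood at 47.4 RPKM in growth and 15.3, 14.8 and 10.3 RPKM later. Of ribosome biogenesis 7 of 31 members were higher, and 14 were when the 60 h library was left out. Dkc1, the pseudouridine synthase of the nucleolus, stood at 20.5 RPKM in growth and 7.10, 2.71 and 5.70 RPKM later.

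Genes of the serum response formed the largest group of signalling genes higher in growth. Of this list, which holds AP-1 factors and feedback inhibitors of growth signalling, 11 of 31 members compared were higher and 1 was lower in growth. These are 35.5% and 3.23%, against 5.10% and 4.54% of all genes compared. Plaur, the receptor of urokinase, stood at 114.1 ± 3.13 RPKM in growth and 24.6, 12.9 and 9.25 RPKM later, and Plau, urokinase itself, at 88.7, 33.0, 21.3 and 14.2 RPKM. Ligand and receptor of this protease system thus both lay above the later range. Fosl1, an AP-1 subunit, stood at 65.8 RPKM in growth and 8.39, 8.65 and 7.38 RPKM later, but 59.3% of its sampled words occur elsewhere and 76.2% of its exon bases overlap another assembled gene. Klf4, a zinc finger factor of arrested cells, was the member lower in growth, at 6.59 RPKM against 35.8, 17.9 and 15.9 RPKM.

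Of ligands and cytokines, 6 of 30 members compared were higher and 2 were lower in growth. That is 20% and 6.67%, the latter near the 4.54% lower of all genes compared. The chemokine Ccl2 stood at 21.2 RPKM in growth and 3.22, 2.56 and 3.78 RPKM later. Grem1, an antagonist of bone morphogenetic proteins, stood at 70.4 RPKM in growth and 15.6, 10.6 and 8.63 RPKM later, and Vegfc at 22.7, 7.64, 6.46 and 6.30 RPKM. The ligand Tgfb3 was lower in growth, at 10.9 RPKM against 50.9, 58.9 and 56.6 RPKM, as was Fst, follistatin, an antagonist of activin and myostatin, at 6.70 RPKM against 51.6, 48.3 and 21.4 RPKM. Receptors were called 3 times in each direction among 32 compared, and 5 were higher without the 120 h library. That is 9.38% each way, against 5.10% higher and 4.54% lower of all genes compared. The coagulation receptors F3 and F2r and the sphingosine phosphate receptor S1pr2 were higher in growth, from 11.8, 70.8 and 22.6 RPKM. Notch3 was lower in growth, at 10.4 ± 0.428 RPKM against 51.6, 46.7 and 59.0 RPKM, with Tgfbr2 and Il6st, the shared receptor of the interleukin 6 family, at 13.4 and 14.8 RPKM in growth. Receptors and ligands gave no common direction.

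The MyoD family was called in 1 member. Myog, myogenin, stood at 16.9 ± 1.27 RPKM in growth and at 398.5 ± 3.08, 489.2 ± 6.95 and 325.9 ± 4.42 RPKM later, a 19.3-fold gap. Myod1 stood at 193 RPKM in growth, inside the later range of 86.1 to 215 RPKM, and Myf5 at 13.6 RPKM in growth against 9.41, 12.6 and 13.4 RPKM later. Both mark the skeletal lineage and were assembled in every library. In the list of myogenic regulators 4 of 23 members compared were lower and none was higher in growth. Mef2c stood at 5.04 RPKM in growth and 24.5, 36.2 and 40.6 RPKM later, Tead4 at 9.31, 34.2, 38.7 and 24.3 RPKM, and Mef2a made the fourth.

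**Figure D4:**
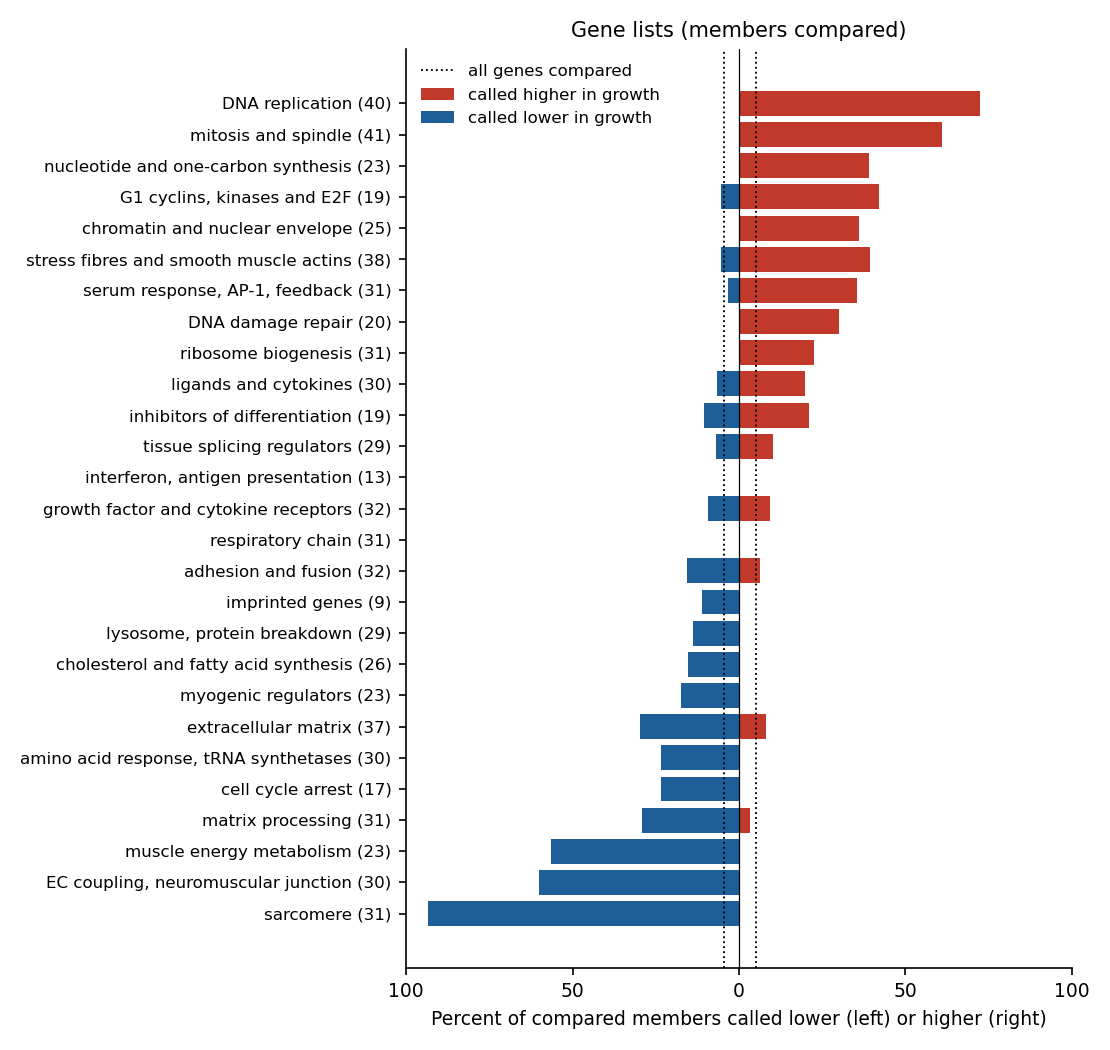
For each gene list, bars give the percent of compared members called higher (right) or lower (left) in growth, with the number compared after the name and the share over all genes as dotted lines. DNA replication reaches 72.5% higher and the sarcomere list 93.5% lower, beside 5.10% and 4.54% of all genes.

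The sarcomere list was the most one-sided. Of 31 members compared 29 were lower in growth and none was higher, with a median difference of -4.28 on the log2 scale. Myl4, an embryonic myosin light chain, stood at 2.05 ± 0.466 RPKM in growth and at 1360 ± 8.20, 2518 ± 19.5 and 2214 ± 13.6 RPKM later. The gap was 664-fold and the widest of all genes called. Acta1, skeletal actin, stood at 18.4 ± 1.34 RPKM in growth and at 5150, 7931 and 7219 RPKM later. Mylpf, the fast regulatory light chain, stood at 27.4 RPKM in growth and 5412, 8897 and 6388 RPKM later. The troponin subunits Tnnc1 and Tnni2 stood at 17.3 and 11.6 RPKM in growth and at 1415 and 1324 RPKM at 60 h. Tnnc2 and Mybph, myosin-binding protein H, had gaps of 175-fold and 119-fold, with 56.1% and 45.2% of their sampled words in other genes. The embryonic myosin heavy chain Myh3 stood at 8.02 RPKM in growth and 756.5, 801.4 and 522.1 RPKM later. Actc1, cardiac actin, stood at 6.92 RPKM in growth and 1758, 1128 and 482.8 RPKM later, the widest later spread of the sarcomere genes named.

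The level of sarcomere genes in growth varied. Of the 29 called, 19 stood under 10 RPKM in growth, while Des, desmin, stood at 452 RPKM in growth and 1303, 1904 and 2286 RPKM later. The fold to the nearest later library ran from 2.78 to 664 with a median of 17.8. A further 25 members of this list were not compared, and 10 of them were assembled in all 3 later libraries and listed at 0 in growth, among them Actn2, Myh1, Myh2, Myh4 and Tnnt1. Genes that every cell uses, such as Gabarap and Rps20, were also listed at 0 in growth, so these give no fold. The 9 markers of the skeletal lineage summed to 974 RPKM in growth and to 9080, 12972 and 12332 RPKM later, with none at 0. Of 6 cardiac markers, Nppa and Myl7 were at 0 in all 4 libraries, and the list summed to 128, 935, 1284 and 46.5 RPKM, almost all of it Tnnt2 through 120 h. Its part in the sarcomere result was not tested.

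Membrane and energy genes of muscle were lower in growth as well. Among genes that couple excitation to contraction or form the nerve-muscle synapse, 18 of 30 members compared were lower and none was higher. Atp2a1, the calcium pump of the fast reticulum, stood at 2.57 ± 0.4499 RPKM in growth and 770.6, 1030 and 1401 RPKM later, with 18.4% of its sampled words in other genes. Casq2, a calsequestrin that stores calcium, stood at 1.87 RPKM in growth and 235.3, 283.5 and 155.5 RPKM later. Cav3, the muscle caveolin, stood at 2.28 RPKM in growth and 203.2, 265 and 216.7 RPKM later. All 3 stood under 3 RPKM in growth and above 150 RPKM in each later library. In the list of muscle energy metabolism 13 of 23 members compared were lower. Cox6a2, the muscle form of a cytochrome oxidase subunit, stood at 1.70 RPKM in growth and 441.6, 575.1 and 644.5 RPKM later. Mb, myoglobin, stood at 1.95 RPKM in growth and 308.2, 621.2 and 529.8 RPKM later, with 34.0% of its sampled words elsewhere, and Pygm, glycogen phosphorylase, at 7.87, 146.4, 230.4 and 324.8 RPKM. Of 31 members of the respiratory chain compared, none was called in either direction.

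The fusion proteins had gaps as wide as those of the contractile genes. Mymk, myomaker, stood at 2.61 ± 0.524 RPKM in growth and 839.6 ± 13.8, 1027 ± 10.6 and 800.1 ± 6.97 RPKM later. Mymx, myomerger, stood at 0.886 ± 0.396 RPKM in growth and 206.6, 210.4 and 122.4 RPKM later. Itgb1bp2, a muscle partner of integrins, stood at 1.21 RPKM in growth and 71.1, 76.7 and 77.5 RPKM later. In the whole list of adhesion and fusion, however, 5 of 32 members compared were lower and 2 were higher in growth, or 4 higher without the 60 h library. Of all members compared 15.6% were lower, against 4.54% of all genes, and 6.25% higher, near the 5.10% of all genes. The 2 higher were the integrin subunit Itga3, at 39.1 RPKM in growth and 12.5, 11.3 and 12.8 RPKM later, and Kirrel. Kirrel stood at 37.1, 15.8, 11.3 and 10.4 RPKM, and its call was lost after median-ratio scaling.

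Collagens and matrix enzymes were mostly lower in growth where they were called. In the extracellular matrix list 11 of 37 members compared were lower and 3 were higher in growth. These are 29.7% and 8.11%, against 4.54% and 5.10% of all genes compared. Col6a1 stood at 3.55 ± 0.456 RPKM in growth and 185.2, 136.7 and 302.2 RPKM later, and Col6a2, its partner chain, at 2.31, 85.3, 55.9 and 283.1 RPKM. Col1a1, a chain of fibrillar collagen, stood at 7.37 RPKM in growth and 141.9, 154.1 and 164.6 RPKM later. The chains of collagen VI were highest at 168 h, whereas Col1a1 was nearly level after growth. Col4a1, a basement membrane chain, went the other way, at 50.6 RPKM in growth and 20.9, 17.5 and 13.1 RPKM later. Igfbp2 was also higher in growth, at 128.5 RPKM against 40.5, 12.3 and 9.98 RPKM, as was Igfbp7, whose call was lost after median-ratio scaling. Of the enzymes that process matrix 9 of 31 compared were lower and 1 was higher in growth, or 2 higher without the 168 h library. That is 29% lower and 3.23% higher, against the same shares of all genes. Mmp2, a gelatinase, stood at 12.4 RPKM in growth and 48.6, 73.7 and 163.5 RPKM later, and Loxl1, a cross-linking oxidase, at 5.32, 26.2, 26.3 and 54.8 RPKM. Has2, the hyaluronan synthase, was the 1 higher in growth, at 11.8 RPKM against 1.54, 3.81 and 3.98 RPKM.

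Of 38 stress fibre genes compared, 15 were called higher in growth and 2 lower. These are 39.5% and 5.26%, against 5.10% and 4.54% of all genes compared. By value alone, with no minimum fold, 25 lay above the later range, 7 below it and 6 inside it. Actb, cytoplasmic actin, stood at 3162 RPKM in growth and 842, 546 and 446 RPKM later. Cnn1, calponin, stood at 43.5 ± 2.03 RPKM in growth and 5.68, 2.02 and 1.53 RPKM later. Actg2, enteric smooth muscle actin, stood at 251.1 ± 5.08 RPKM in growth and 47.3, 14.4 and 3.85 RPKM later. Tagln, transgelin, stood at 700.1 RPKM in growth and 52.2, 24.6 and 10.04 RPKM later, but 47.7% of its sampled words occur elsewhere and 72.6% of its exon bases overlap another assembled gene. The 2 members lower in growth were Flnc, the muscle filamin, at 41.3 RPKM against 182.7, 195.6 and 288.3 RPKM, and Tpm2, a tropomyosin, at 641.7 RPKM against 1306, 1512 and 1434 RPKM. The 6 smooth muscle markers summed to 2578 RPKM in growth and 1806, 969 and 503 RPKM later. Tagln, Cnn1 and Actg2 are 3 of them and were called, and Acta2 was not called, with 1553 RPKM in growth and 1592 RPKM at 60 h. Smtn, also not called, went the other way, at 30.7 RPKM in growth and 109.8, 124.7 and 83.4 RPKM later. Myh11, the smooth muscle myosin, was at 0 in all 4 libraries. The part of smooth muscle-like cells in the stress fibre result was not tested.

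Metabolic and stress lists gave calls in 1 direction. Of cholesterol and fatty acid synthesis 4 of 26 compared were lower in growth, among them the desaturases Scd1, at 46.3 RPKM against 278.2, 265.6 and 257.3 RPKM, and Scd2, at 129 RPKM against 782, 686 and 440.5 RPKM. Of the amino acid response and tRNA synthetases 7 of 30 were lower, and 11 were when the 168 h library was left out. Trib3, a pseudokinase induced by amino acid lack, stood at 21.1 RPKM in growth and 193.6, 156.8 and 152.3 RPKM later, and Atf3, a stress-induced transcription factor, at 3.64, 41.5, 32.4 and 27.0 RPKM. Of lysosome, autophagy and protein breakdown 4 of 29 were lower, among them Map1lc3a, a protein of the autophagosome, at 47.4 RPKM against 168.2, 368.5 and 511.2 RPKM, and the muscle ubiquitin ligase Fbxo32, at 2.23 RPKM against 6.47, 8.75 and 21.6 RPKM. Of 13 interferon genes compared none was called, although 1 was lower in growth after median-ratio scaling and 2 were without the 60 h library. Of 9 imprinted genes compared only the noncoding RNA H19 was called, and it was lower in growth, at 1728 ± 29.6 RPKM against 9152, 12442 and 9053 RPKM.

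At the level of splicing, growth lay outside the later range in 342 of 3059 genes tested, or 11.2%. A choice at a shared splice site was called where its share in growth lay at least 30 percentage points outside the shares of all 3 later libraries, with intervals apart and at least 5 RPKM through the site in each library. The choices were an alternative end exon in 140 genes, a cassette exon in 130, an alternative splice site of 1 exon in 53, mutually exclusive exons in 6 and another form in 13. In 168 of the 342 genes the growth share was 0 or 100, which means that the other form was not assembled there and carries no counting error. Where both forms were assembled in all 4 libraries, 57 of 1246 genes were called, or 4.57%. Of the 342 genes with a called choice 28, or 8.19%, were also called at gene level, near the 6.80% of all genes tested for splicing. Those 28 are 3.06% of the genes called at gene level, with 6 higher and 22 lower in growth. The widest gap, a share of 0 in growth against 100 in every later library or the reverse, was found in 20 genes. Beside cassette exons described next, they include Arhgef12, Cnot8, Cttn, Ercc2, Hmgn1, Lamtor1, Laptm4b, Lmo7 and Pde4dip. Of the 20, Cttn, a cortical actin protein, and Hmgn1, a nucleosome-binding protein, had the deepest sites in growth, with 104.8 and 111.9 RPKM.

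Of the cassette exons called, most were included less in growth. Inclusion is the share of transcripts at a site that take the exon, measured at both of its ends. Of 1840 cassette exons tested, 74 were included less in growth than in each later library, or 4.02%, and 18 were included more, or 0.978%. The 74 lie in 72 genes and the 18 in 16, since Immt holds 3 overlapping exons. For 35 of the 74 the exon was not assembled in growth, where the skipping form of the 74 had a median of 10.2 RPKM, and for 10 of the 18 the skipping form was not assembled in growth. Where both forms were assembled in all 4 libraries, 15 of 548 exons were included less and 5 more in growth. For this count the inclusion form was taken as assembled if the exon was joined at either end, so some shares of 0 at the other end remain. Of the exons included less, 68.9% had a length that is a multiple of 3, and 72.2% of those included more, against 57.5% of all tested. Leaving out the 60 h library raised the count of exons included less to 117, and leaving out 60 h, 120 h or 168 h raised that of exons included more to 32, 35 or 29.

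**Figure D5:**
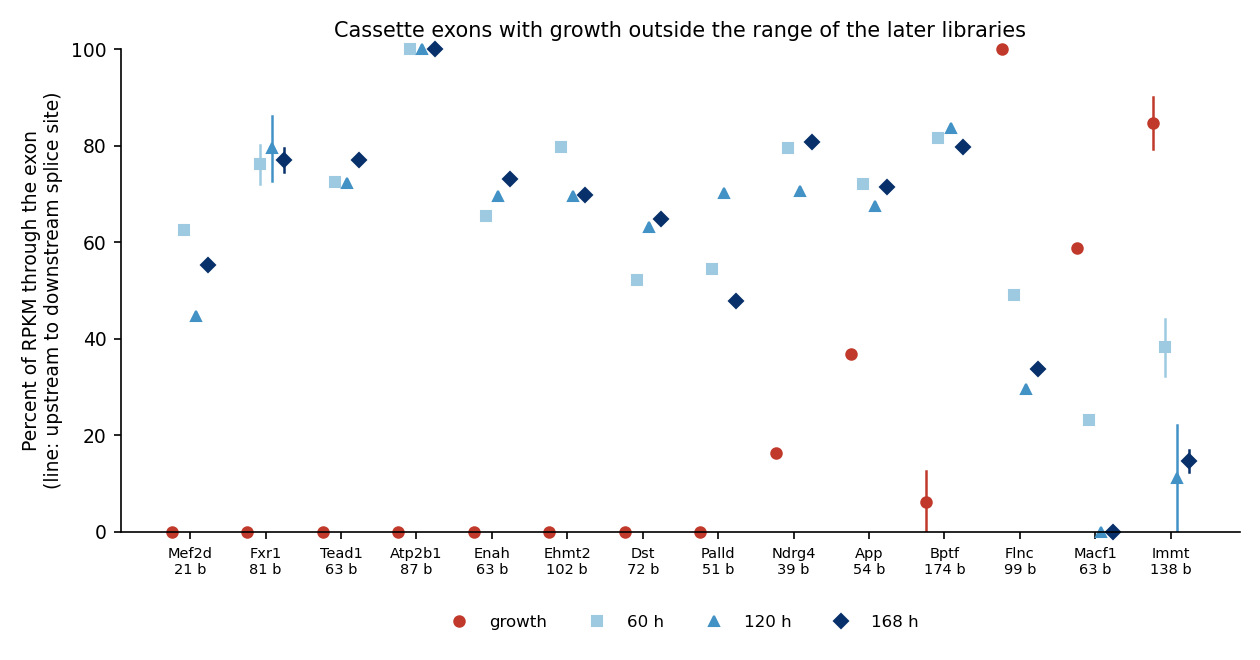
Points give the inclusion of named cassette exons in percent, as the mean of the shares at both ends with a line from one end to the other, in growth and at 60, 120 and 168 h. Most exons start at or near 0 in growth and lie above 40% later, while those of Flnc, Macf1 and Immt start above the later values.

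The exon of Mef2d shown above was not assembled in growth, where 27.7 RPKM skipped it, and was included in 62.5 ± 2.61%, 44.8 ± 2.77% and 55.3 ± 1.26% at 60 h, 120 h and 168 h. The exon of Fxr1 was not assembled in growth, with 18.3 RPKM skipping it, and was included in 76.9%, 81.7% and 77.3% later. The exon of Ehmt2 was not assembled in growth, with 63.5 RPKM skipping it, and was included in 79.8%, 69.5% and 69.8% later. In each of these 3 the later libraries lie apart from growth, as the rule for a call requires. The exon of Tead1 was included in 72.4 ± 7.07%, 72.4 ± 13.1% and 77.0 ± 8.14% later, on 6.89 RPKM of skipping form in growth. The exon of Palld was included in 54.4%, 70.2% and 47.9% later, on 58.0 RPKM of skipping form in growth, and that of Enah in 65.4%, 69.5% and 73.0%, on 5.67 RPKM. The exon of Atp2b1 was taken by every transcript at the site later and by none of 15.1 RPKM in growth. At low coverage, such as that of Enah in growth, the minor form may not have been assembled, and depth limits what a share of 0 can show.

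The next 4 exons, all included less in growth, had both forms assembled in all 4 libraries, where a join at either end of the exon counts as inclusion. The 39-base exon of Ndrg4 was included in 16.2 ± 3.76% in growth and in 79.5 ± 2.40%, 70.6 ± 3.63% and 80.8 ± 2.13% later. The 87-base exon of Smpd4, a sphingomyelinase, was included in 16.4 ± 3.58% in growth and in 78.9%, 77.4% and 80.6% later. The 174-base exon of Bptf, a subunit of a chromatin remodeller, was included in 6.73% in growth, with a share of 0 at its upstream end and 12.6 ± 3.71% at its downstream end, and in 81.6%, 83.7% and 79.7% later. The 54-base exon of App was included in 36.8 ± 3.29% in growth and in 72.0%, 67.5% and 71.4% later. Ndrg4, Bptf and App were named after their values were seen. In none of the 4 did the growth interval reach a later one, as the rule for a call requires.

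Long exons were among those with the widest gaps. An exon of 5916 bases in Naca, a subunit of the nascent polypeptide complex, and an exon of 1313 bases in Myo18a, an unconventional myosin, were taken by every transcript assembled at the site in the 3 later libraries and by none in growth, with 30.3 and 32.4 RPKM in growth. Map4, a microtubule protein, has an exon of 3180 bases whose share at its upstream end was 0 in growth and 49.6 ± 3.21%, 42.6 ± 3.80% and 44.9 ± 1.87% later. At its downstream end the share was 0 in growth and 42.25 ± 3.204% at 60 h. In Rtn4, a protein of the tubular reticulum, the exon of 2361 bases was assembled in growth, with a share of 0 at its upstream end and 41.8 ± 7.99% at its downstream end, and stood at 86.1%, 100% and 100% at both ends later. All 4 exons were included less in growth.

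Exons included more in growth were fewer. The 99-base exon of Flnc, the muscle filamin, was in every transcript assembled at the site in growth, with 41.3 RPKM, and in 49.0 ± 2.08%, 29.6 ± 3.13% and 33.7 ± 1.99% later. The 63-base exon of Macf1 printed above was included in 58.9 ± 5.61% in growth, 23.2 ± 4.71% at 60 h and was not assembled at 120 h and 168 h. A 138-base exon of Immt, a scaffold of mitochondrial cristae, was included in 86.5% in growth and in 38.8%, 12.5% and 14.8% later. A 40-base exon of Rbfox2, itself a splicing regulator, was included in every transcript in growth and in 38.8%, 62.5% and 61.6% later. Flnc, Immt and Rbfox2 were named here after their values were seen, Flnc being also named at gene level.

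Of genes on a list chosen for isoforms known from muscle, 29 of 69 tested had a called choice, against 11.2% of all genes tested. The list was drawn up with results of these data known, so nothing is read from that share. The tropomyosins changed at their alternative ends. The form of Tpm1 called held 100% of the site in growth and 14.7 ± 0.347%, 6.47 ± 0.376% and 4.803 ± 0.272% later. In Tpm2 the share of an end went from 72.4 ± 2.02% in growth to 10.1%, 0 and 0, and in Tpm3 that of another end from 0 to 65.7%, 87.8% and 100%. Pdlim7, a PDZ and LIM protein of the Z-disc, had both forms in every library, with a share of 55.9 ± 3.47% in growth and 18.1 ± 1.15%, 14.7 ± 1.70% and 14.4 ± 1.60% later. Ncam1, an adhesion molecule, also had both, with 55.1 ± 4.62% in growth and 22.4%, 17.6% and 16.7% later. In Fhl1 and Mbnl1 the called shares stood at 47.1% and 32.9% in growth and at 8.35% and 0 at 60 h.

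Growth also lay outside the later range in the choice of first exon, in 139 of 1137 genes tested, or 12.2%, and in 11 of 330 genes, or 3.33%, where both first exons were assembled in all 4 libraries. Without the 60 h library 211 were called. In 57 of the 139 the growth share was 0 or 100. A first exon of Palld held 77.1 ± 3.65% in growth and 23.7 ± 3.30%, 16.5 ± 4.94% and 25.2 ± 5.34% later, with both forms in each library. In Tsta3, an enzyme of GDP-fucose synthesis named after its values were seen, a first exon held 17.6 ± 2.31% in growth and 69.4 ± 3.74%, 68.0 ± 6.47% and 73.7 ± 5.22% later. In Ctbp2, a corepressor, and in Sema4b, a semaphorin, the first exon used later was not assembled in growth, with 15.3 and 16.7 RPKM there. The widest gaps in first exons also include those of Abcd4, Adck2, Galnt1, Laptm4b and Tspan12, each a share of 0 against 100 in the later libraries or the reverse.

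The splicing regulators themselves were called in both directions. Of 29 compared, 3 were higher and 2 were lower in growth. These are 10.3% and 6.9%, against 5.10% and 4.54% of all genes compared, so the counts alone set this small list little apart. The higher count was 7 when the 60 h library was left out and 6 when the 120 h library was. Ptbp1 stood at 137.5 ± 5.22 RPKM in growth and at 44.5 ± 5.76, 32.6 ± 6.87 and 26.0 ± 4.64 RPKM later, with 22.8% of its sampled words in other genes. Srsf7, an SR protein, stood at 146.8 RPKM in growth and 44.1, 30.4 and 25.8 RPKM later. Hnrnpd was higher as well, but its call was lost after median-ratio scaling. Rbfox1 stood at 0.398 ± 0.564 RPKM in growth and 6.83, 13.4 and 13.4 RPKM later, and Rbm38, an RNA-binding protein, at 18.8, 58.6, 61.0 and 103.2 RPKM. No level of these regulators was related to the exons by a test.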

How the data were processed

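Polyadenylated RNA of 4 C2C12 libraries was copied from random primers, per the labels' protocols, which describe no marking of strand. The authors deposited assembled transcripts with their RPKM and confidence limits, and the file headers carry a deposited score column that was not used. The submitters' processing notes name Cufflinks 0.8.0 and TopHat 1.0.13, without their roles. For the files, a build was not given in the sources used here. Genes were named by runs of exon and intron lengths in GENCODE vM21 (GRCm38), which named 79684 of 86663 transcripts with introns.

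The deposited limits lie at a distance of 2 times the square root of the fragments counted, and low counts came out whole within 0.01 in 93.7% to 94.6% of cases. The median distance to the limit was 8.02% at 60 h, 8.92% at 168 h, 9.78% in growth and 11.8% at 120 h. A gene had 3 measures, the sum of RPKM over its transcripts (printed), the median through introns assembled in all 4 libraries, and fragments over the union of its exons. Folds are plain ratios of sums. Copies are the percent of words of 50 bases found in another annotated gene. They reached at least 5% in 115 of the 484 higher and 79 of the 431 lower genes, and in 25 of the 112 named genes. The percent is not printed for every such gene, so a gene without it is not thereby free of copies. Leaving out genes with copies gave 369 higher and 352 lower.

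Genes named were the 15 with the largest gap in each direction among protein-coding genes of at least 10 RPKM, up to 3 per list and direction, 12 splice and 8 first exon choices, called isoform genes and markers, apart from a few that are not reported here. The members and lists were chosen with earlier results of these data known. Alternatives covered measure, pseudocount, scaling, minimum, fold and leaving out each later library. Python 3.11.15 with numpy 2.4.6 and pandas 2.3.3 was used. The calling rules were also run on simulated counts with counting error only, not with the 3 gene measures together. That run held no assembly, naming or spread between libraries, so it does not test the calls given here.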

Additional observations from a re-analysis of the deposited data

How the results depend on the processing

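Counts of genes moved most with the size rule, those of splice and first exon choices with the requirement of both forms, and those of genes in growth alone with the RPKM minimum. With no minimum fold, 2206 genes were higher and 1323 lower in growth, and with 4-fold 56 and 136. Through introns alone 727 genes were higher, and over the union of exons alone 773 were higher and 665 lower. Median-ratio scaling gave 330 higher, all among the 484, and 526 lower, which held all 431. Leaving out each later library in turn gave 534 to 798 higher, the latter without 60 h, and 451 to 603 lower. Genes with a splice choice numbered 197 at a minimum of 10 RPKM, 536 at 2 RPKM, 587 at 20 points, 118 at 50 points and 57 with both forms assembled everywhere, and 437 to 491 without 1 later library. First exon choices numbered 77, 241 and 66 at 10 RPKM, 2 RPKM and 50 points, 11 with both forms everywhere and 183 to 211 without 1 later library, the latter without 60 h. Genes assembled in growth alone numbered 59, and 10 at 5 RPKM, 113 with no minimum and 107 from multi-exon transcripts. Genes assembled in the 3 later libraries alone numbered 369, and 107, 655 and 583 under the same settings. Cassette exons included less numbered 15 with both forms everywhere and 93 to 117 without 1 later library, and those included more 5, and 29, 32 and 35 without 168 h, 60 h and 120 h. Of the list members, 141 were higher and 125 lower, against 117 and 132 after median-ratio scaling and 197 and 150 over the union of exons. Of 112 named genes all kept their call with equal totals and 107 under median-ratio scaling. All 112 also kept it by each measure alone, with the smaller pseudocount and with a library left out. Those settings could not remove a call, because the rule asks for all 3 measures and the others can only widen the gap. The cause was not tested. The requirement of both forms, the cassette measure and the minimum of 3 introns were chosen after seeing the data. No paired analysis was possible because each time point has 1 library. Depth limits low genes and shares of 0 most at 120 h, the shallowest library, and next in growth. Growth had the fewest assembled transcripts with introns, 19974 against 22902 at 60 h, 21238 at 120 h and 22549 at 168 h. Shares and values of 0 in growth are therefore limited by assembly as well.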

Other observations

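Several genes of glutathione and redox metabolism lay above the later range in growth beside Nqo1, and were picked after their values were seen. Gclm and Gclc, the subunits of glutamate-cysteine ligase, stood at 39.5 and 23.1 RPKM in growth and at 7.17 and 8.25 RPKM at 60 h. Gsr, glutathione reductase, stood at 50.3 RPKM in growth and 10.1, 8.02 and 8.41 RPKM later. Txnrd1, thioredoxin reductase, stood at 121 RPKM in growth and 46.5, 42.2 and 41.0 RPKM later, Srxn1, sulfiredoxin, at 49.8, 15.5, 17.2 and 18.8 RPKM, and Hmox1, heme oxygenase, at 191.5, 60.3, 60.9 and 80.2 RPKM. Slc7a11, a cystine transporter, and Aox1, aldehyde oxidase, were not called. Slc7a11 lay inside the later range, at 1.74 RPKM in growth and 4.75, 1.15 and 4.66 RPKM later. Aox1 lay below it, at 2.03 RPKM in growth and 3.8, 6.81 and 7.91 RPKM later.

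Few markers of other lineages were called. Spp1, osteopontin, stood at 985 RPKM in growth and 298, 358 and 204 RPKM later, and made nearly all of the 1008 RPKM summed in growth over 8 osteoblast and chondrocyte markers, of which 5 (Bglap, Alpl, Ibsp, Col2a1 and Acan) were at 0 in each library. Of the adipocyte markers, Pparg stood at 20.7 RPKM in growth and 3.18, 5.76 and 1.63 RPKM later, while Adipoq, Cidec and Plin1 were at 0 in each library. Cd36 and Fabp4 went the other way and were not compared. Cd36 was at 0 in growth and at 4.78, 6.22 and 7.55 RPKM later, and Fabp4 at 0, 0, 0.396 and 0.750 RPKM. Macrophage and endothelial markers summed to 1.14 and 1.196 RPKM in growth and at most to 5.11 and 10.4 RPKM later.

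Of small nucleolar RNA host genes, Snhg10 was higher in growth, at 10.3 RPKM against 2.19, 1.38 and 1.48 RPKM. Snhg3 was also called higher, at 51.1 RPKM against 15.7, 6.53 and 4.75 RPKM, but 72.2% of its sampled words occur elsewhere and 60.8% of its exon bases overlap another assembled gene, so its values are uncertain. Among the genes assembled in growth and listed at 0 in the 3 later libraries was the ribosomal protein gene Rpl18, which every cell uses, at 74.5 RPKM, so a listed 0 is not absence. Among genes listed at 0 in growth, Myh13 stood at 816.5, 568.1 and 450.8 RPKM later, with 8.64% of its sampled words in other genes. Tnnt1 stood at 509.99, 659.96 and 429.3 RPKM later. These genes were also picked by their values.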
